A study of Homo sapiens with 12 samples.

Results

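ATF4, CEBPB, XBP1 and HERPUD1 are 4 stress-response genes of MDA-MB-231 cells, followed here through RNA and ribosome footprints after 4 h with the lactate export blocker AZD0095 or with its solvent DMSO. They were found by gene symbol in each of the 12 deposited tables and make up 4 of the 6777 genes measured. All 4 had been picked from genes whose RNA was higher with AZD0095 in these libraries, so their RNA changes are given as a description without a test. The same holds for the change of the footprint-to-RNA ratio, which contains the RNA change. The footprint libraries had no part in the choice, and the footprint changes were tested.

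ATF4 is the transcription factor of the integrated stress response. When a stress kinase phosphorylates the initiation factor eIF2, general protein synthesis falls while ribosomes pass short upstream reading frames in the ATF4 leader and reach its coding sequence, and ATF4 then turns on genes of amino acid supply. CEBPB encodes C/EBP-beta, a bZIP (basic leucine zipper) factor that pairs with ATF4 at composite C/EBP-ATF elements. XBP1 is the bZIP factor of the unfolded protein response of the endoplasmic reticulum (ER). Its mRNA is transcribed under the control of the ER stress sensor ATF6 and becomes active after the sensor IRE1, the product of ERN1, removes a short intron. HERPUD1 encodes HERP, a ubiquitin-like ER membrane protein that serves ER-associated degradation and is known as a target of ATF6 and ATF4. The 4 genes thus stand at the point where the amino acid and the ER branch of stress signalling meet.

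The series asks how lactate that accumulates inside cells bears on transcription and translation. MDA-MB-231 is a human cell line from a triple-negative breast tumour, and AZD0095 blocks MCT4, the lactate exporter encoded by SLC16A3. Transcripts were measured by RNA-seq in 3 libraries with 10 nM AZD0095 and 3 with DMSO, and ribosome-protected mRNA fragments by ribosome profiling in another 3 and 3. All cultures were grown in serum-containing medium, and every ribosome profiling sample was treated with cycloheximide, which holds ribosomes in place, cleared of nuclei and mitochondria, digested with RNase I and depleted of rRNA. The titles call the RNA-seq material total RNA and the molecule field polyA RNA, which leaves the RNA selection unclear. Nothing in the labels tells whether a replicate was its own culture, and the p-values therefore speak of library-to-library spread, possibly technical. The values are averages over a cell line culture, in which a change per cell and a change in the number of cells that express a gene cannot be told apart.

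The unit was FPKM, fragments scaled to gene length and to the mapped reads of the library, and each listed gene was above 1 FPKM in every library. Of 6 markers of the mesenchymal state of this line, all 6 were listed. Of 7 markers of luminal or receptor-positive breast cells, 2 were listed, ERBB2 and EPCAM, and neither ESR1 nor PGR was among the listed genes. Across genes, the correlation between libraries of a group was 0.989 to 0.997 in RNA and 0.854 to 0.920 in footprints. From the whole-read steps of the values, footprint libraries held an implied 141122, 217366 and 501351 reads with AZD0095 and 123859, 107087 and 192324 with DMSO. The mean was 2.03 times as high with AZD0095, and its part in the footprint values was not tested. RNA read numbers are unknown. With limma and an adjusted p under 0.05, 545 genes or 8.04% were called in RNA, 5.03% as higher and 3.01% as lower with AZD0095. Each single RNA library left out moved the count of 545 by more than 1.5 times, to 1112, 116 and 214 without AZD0095 replicates 1, 2 and 3 and to 280, 100 and 249 without DMSO replicates 1, 2 and 3. In footprints 0 genes or 0% were called, with 530 genes or 7.82% at an unadjusted p under 0.05.

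The RNA of all 4 genes was higher with AZD0095, in the order CEBPB, XBP1, HERPUD1 and ATF4 by size of change. The AZD0095 and DMSO libraries did not overlap for any of the 4, where 17.7% of all genes had every AZD0095 library above every DMSO library, and nothing is read from this count, since the genes were picked for this difference. Changes are given as log2 fold changes of FPKM + 1 with the standard error (SE) from limma. The 4 ranked 12 (CEBPB), 24 (XBP1), 168 (HERPUD1) and 271 (ATF4) among the 6777 genes by RNA log2 fold change, and the median gene was at 0.01.

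ATF4 (ENSG00000128272) had the most abundant RNA of the 4. It was at 249, 258 and 261 FPKM in the AZD0095 libraries, against 190, 206 and 203 FPKM in the DMSO libraries. The lowest AZD0095 library thus stood above the highest DMSO library, and the libraries of a group lay close together. The means were 256 ± 6.34 FPKM with AZD0095 and 199 ± 8.39 FPKM with DMSO (SD, n = 3), a ratio of means of 1.28 and a log2 fold change of 0.36 ± 0.05 (SE). In GRCh38.p14, the same build as hg38, the gene spans chromosome 22 from 39520559 to 39522686.

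CEBPB (ENSG00000172216) had the least RNA of the 4 and the largest change. It was at 17.6, 17.9 and 18.6 FPKM with AZD0095, against 8.96, 9.33 and 9.56 FPKM with DMSO. Each AZD0095 library stood far above each DMSO library, with a spread of under 1 FPKM inside either group. The ratio of the means was 1.94, and the log2 fold change was 0.89 ± 0.07 (SE). The gene spans chromosome 20 from 50190583 to 50192690.

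XBP1 (ENSG00000100219) was at 84.1, 81.0 and 87.7 FPKM with AZD0095, against 48.2, 46.3 and 48.7 FPKM with DMSO. The 2 groups were far apart beside the few FPKM that separated libraries of a group. The ratio of the means was 1.77 and the log2 fold change 0.81 ± 0.05 (SE). Values are per gene, so the spliced and the unspliced XBP1 mRNA are not told apart. The gene lies on the minus strand of chromosome 22, from 28794560 to 28800569.

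HERPUD1 (ENSG00000051108) was at 44.9, 43.2 and 46.4 FPKM with AZD0095, against 33.0, 31.2 and 35.7 FPKM with DMSO. Here too every AZD0095 library was higher, by a smaller margin. The ratio of the means was 1.35 and the log2 fold change 0.42 ± 0.07 (SE). The gene spans chromosome 16 from 56932142 to 56944864.

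**Figure D1:**
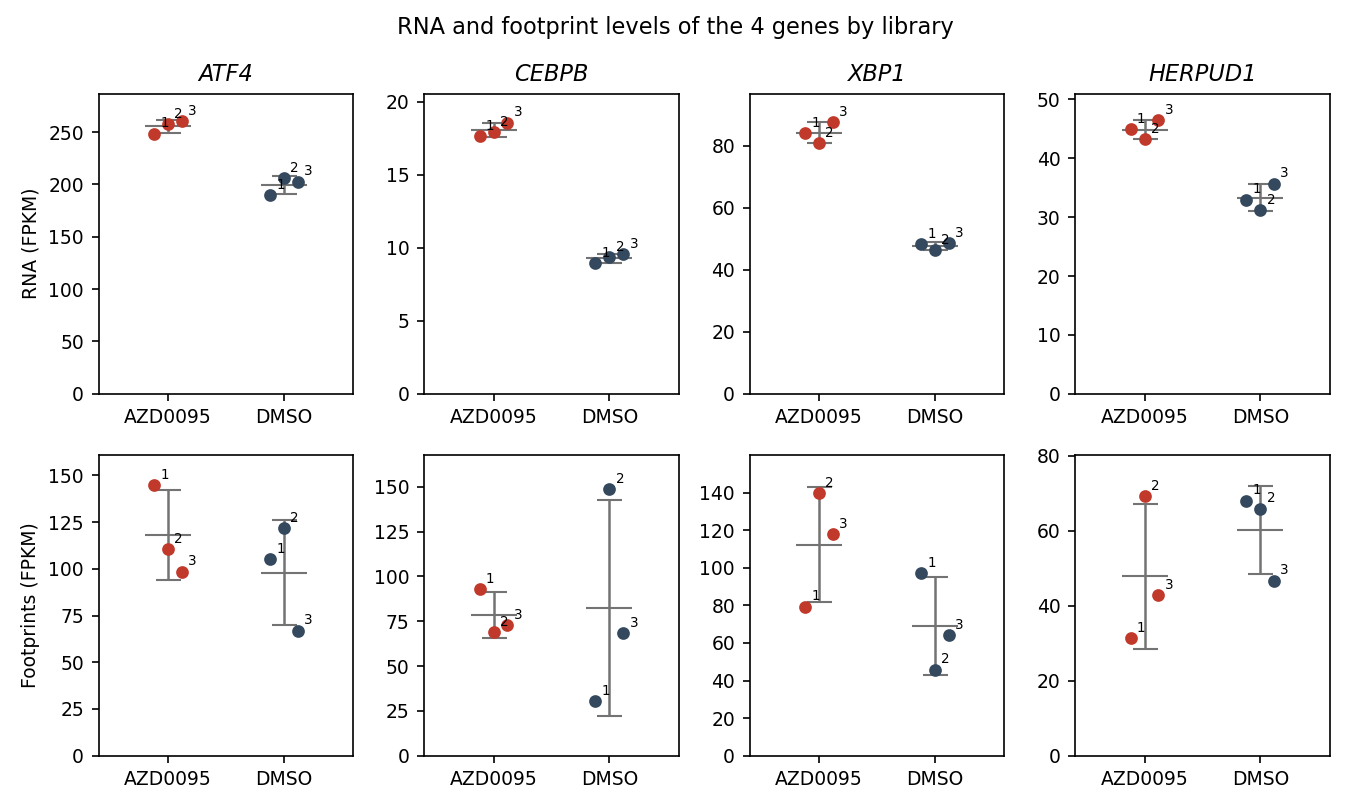
RNA (top) and footprint (bottom) levels of the 4 genes in FPKM, for AZD0095 (left) and DMSO (right) libraries. Points are libraries labelled by replicate number, and bars are the mean ± SD (n = 3). RNA groups are separate for each gene, while footprint groups overlap for each.

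The promoters of XBP1 and HERPUD1 carry the letters of ER stress response elements, and they are printed for that reason. Each line gives the 250 bases before the outermost annotated start site in the direction of transcription, from the RefSeq table on GRCh38.p14, at chr22:28800570-28800819 on the minus strand for XBP1 and at chr16:56931892-56932141 on the plus strand for HERPUD1. Capitals mark the motif matches.
XBP1: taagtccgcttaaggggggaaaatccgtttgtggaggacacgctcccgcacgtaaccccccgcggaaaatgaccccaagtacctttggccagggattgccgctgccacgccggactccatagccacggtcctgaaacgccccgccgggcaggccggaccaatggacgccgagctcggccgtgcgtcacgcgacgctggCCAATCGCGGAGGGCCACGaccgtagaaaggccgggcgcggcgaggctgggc
HERPUD1: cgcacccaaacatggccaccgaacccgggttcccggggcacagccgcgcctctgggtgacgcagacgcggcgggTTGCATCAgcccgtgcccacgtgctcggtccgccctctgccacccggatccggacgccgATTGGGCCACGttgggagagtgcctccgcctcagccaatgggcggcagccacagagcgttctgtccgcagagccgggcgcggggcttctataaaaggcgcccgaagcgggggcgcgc
The XBP1 capitals are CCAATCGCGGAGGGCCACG, from 52 to 34 bases before the start site. They match ERSE, the ER stress response element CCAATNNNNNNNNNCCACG bound by ATF6 with NF-Y. In the HERPUD1 sequence the second run of capitals, ATTGGGCCACG, lies from 117 to 107 bases before the start and matches ERSE-II, ATTGGNCCACG, an element known from this gene. The first run, TTGCATCA, lies from 176 to 169 bases before the start and matches, on the other strand, the composite C/EBP-ATF element CARE, searched as TGATGNAA.

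These matches were rare among promoters, but the motifs were chosen with the 4 genes known, so nothing is read from the rarity. In the same 250-base window and on both strands, ERSE was found in 26 of 34796 promoter windows (0.0747%), ERSE-II in 18 (0.0517%) and CARE in 1098 (3.16%). None of the motifs was found in the 2 windows of ATF4, the 2 of CEBPB or the second window of XBP1. The search also covered UPRE (TGACGTGG), CRE (TGACGTCA) and a C/EBP half-site pair (TTGCNNAA), which no window of the 4 genes held and which 0.618%, 1.64% and 9.05% of windows held. A match is a run of letters and not a measured binding site, and its absence says only that these letters are not in the window.

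Other genes with the same letters were called in RNA at about the share of all genes, 8.04%. Of 10 other measured genes with an ERSE match, 0 were called in RNA by limma and 1 had an unadjusted p under 0.05, with log2 fold changes from -0.22 to 0.26. These include the ER chaperone genes HSPA5, HSP90B1, CALR and CANX, named after their values were seen. Of 11 other genes with an ERSE-II match, 1 was called higher, the glycogen synthase gene GYS1, also named after its value was seen. Of 118 other genes with a CARE match, 6 were called higher and 3 lower, 5.08% higher against 5.03% of all genes. A promoter window was at hand for 5657 of the 6777 genes.

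By RNA level the 4 genes formed a ladder that did not carry over in full to footprints. RNA stood in the order ATF4, XBP1, HERPUD1 and CEBPB under both treatments, and none of the 3 pairs of neighbours overlapped between libraries. The highest mean RNA level was 14.2 times the lowest with AZD0095 and 21.5 times with DMSO. In footprints the same ratio was 2.47 with AZD0095 and 1.63 with DMSO, and all 3 pairs of neighbours overlapped, so the order of neighbours was not resolved. Genes further apart were separate with AZD0095. Every ATF4 library there (lowest 98.6 FPKM) was above every CEBPB (highest 93.0) and HERPUD1 (highest 69.2) library. Every XBP1 library (lowest 79.3) was above every HERPUD1 library. With DMSO every pair of genes overlapped.

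Footprints gave no called change for any of the 4 genes, and the groups overlapped for all 4. Over all genes, every AZD0095 library was above every DMSO library in 7.19% and below in 5.77%. In simulated data the footprint fit called 0 of 200 genes changed by 1 on the log2 scale. At a change of 2 it called 76 of 200. A footprint change as large as the RNA change of these genes could hardly be called, so the missing calls say little about it. ATF4 was at 145, 111 and 98.6 FPKM with AZD0095, against 105, 122 and 66.9 FPKM with DMSO. The highest library was an AZD0095 one and the lowest a DMSO one, with DMSO replicate 2 above AZD0095 replicates 2 and 3. The log2 fold change was 0.29 ± 0.37 (SE, limma adjusted p = 0.89), with a 95% interval from -0.51 to 1.09. Without DMSO replicate 3 it was 0.041 and without DMSO replicate 2 it was 0.47, neither called.

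XBP1 had the highest footprint log2 change of the 4, also within its error. Its footprints were at 79.3, 140 and 118 FPKM with AZD0095, against 97.1, 45.8 and 64.1 FPKM with DMSO. Here 2 of 3 AZD0095 libraries were above all DMSO libraries, and AZD0095 replicate 1 was below DMSO replicate 1. The ratio of the means was 1.63. The log2 fold change was 0.72 ± 0.42 (SE, limma adjusted p = 0.71, interval -0.18 to 1.63) and lay between 0.47 and 1.23 when libraries were left out.

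HERPUD1 had a negative footprint log2 change, within its error. Its footprints were at 31.4, 69.2 and 42.8 FPKM with AZD0095, against 68.0, 65.9 and 46.7 FPKM with DMSO. 1 AZD0095 library was the highest of all 6 and the other two were the lowest, so the groups overlapped. The log2 fold change was -0.38 ± 0.47 (SE, limma adjusted p = 0.88), with an interval from -1.40 to 0.63. Without replicate 1 of both treatments it was -0.027.

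CEBPB footprints rested on few reads. They were at 93.0, 69.0 and 72.9 FPKM with AZD0095, against 30.3, 149 and 68.2 FPKM with DMSO. The highest and the lowest of the 6 libraries were both DMSO libraries. At an implied length of 1067 bases, each CEBPB value was a whole number of reads to a tolerance of at most 0.1, set tighter for few reads. This gave 14, 16 and 39 reads with AZD0095 and 4, 17 and 14 reads with DMSO. The 4 reads of DMSO replicate 1 have an exact 95% Poisson interval of 1.09 to 10.2 reads, or 8.25 to 77.5 FPKM, which covers counting error only. Summed over libraries, CEBPB had 69 of 859839 implied reads with AZD0095, or 75.2 FPKM (interval 58.5 to 95.2), and 35 of 423270 with DMSO, or 77.5 FPKM (54.0 to 108). These summed intervals also cover counting error only and leave out the spread between libraries, so they are too narrow for the group level.

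The log2 fold change of CEBPB footprints was 0.19 ± 0.53 (SE, limma adjusted p = 0.95, interval -0.96 to 1.35), and its sign depended on DMSO replicate 1. Without that library it was -0.37 and without DMSO replicate 2 it was 0.76. The ratio of the means, 0.95, was below 1 although the log2 change was positive. For each of the 4 genes the footprint interval held both 0 and the RNA change of that gene, so a footprint change as large as the RNA change and no change were both within the error. Within the same tolerance, the values of ATF4, XBP1 and HERPUD1 did not come to whole reads at any length up to 6000 bases, and their read numbers are unknown.

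**Figure D2:**
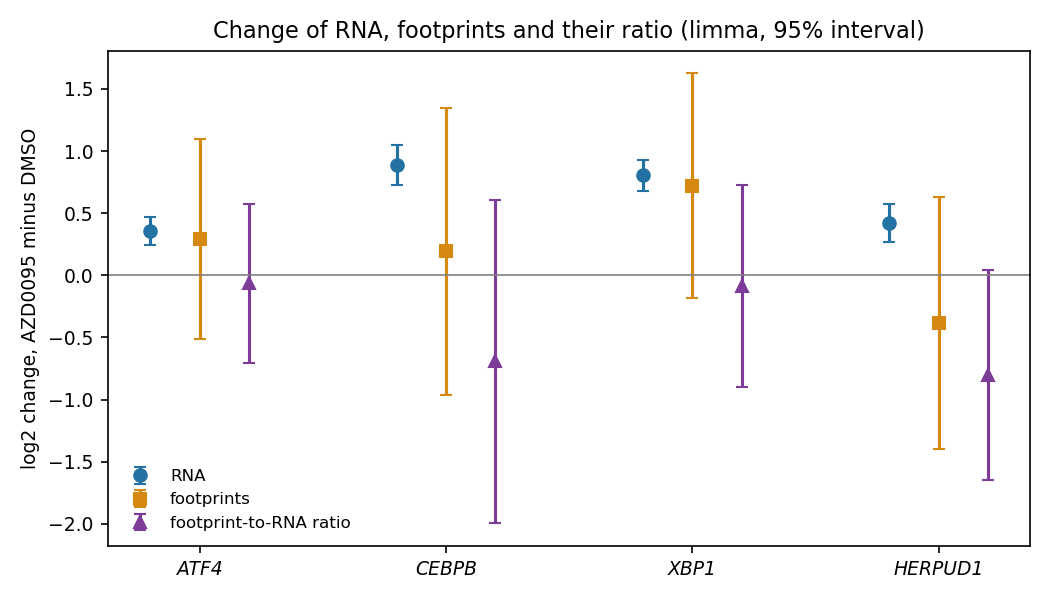
Log2 change with AZD0095 relative to DMSO of RNA (circles), footprints (squares) and the footprint-to-RNA ratio (triangles) for the 4 genes, with limma 95% intervals. RNA changes lie between 0.36 and 0.89 with narrow intervals, and each footprint interval holds both 0 and the RNA change of its gene.

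The 4 genes lay far apart in footprints per RNA. The ratio of mean footprint to mean RNA FPKM had a median of 2.45 over all genes with AZD0095 and 2.43 with DMSO. ATF4 was among the lowest of all genes, at a ratio of 0.462 with AZD0095 (percentile 1.27) and 0.491 with DMSO (percentile 2.14). CEBPB was high, at 4.34 with AZD0095 (percentile 79.0) and 8.88 with DMSO (percentile 94.5). XBP1 was at 1.33 with AZD0095 (percentile 19.4) and 1.45 with DMSO, also below the median gene. HERPUD1 was at 1.06 with AZD0095 (percentile 12.0) and 1.81 with DMSO (percentile 34.7).

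With single DMSO libraries left out, the ratio in DMSO ran from 0.431 to 0.569 for ATF4, 5.30 to 11.7 for CEBPB, 1.15 to 1.69 for XBP1 and 1.69 to 2.01 for HERPUD1. In each of these settings CEBPB was above 2.43, the median of all genes with DMSO, and the other 3 were below it. The gene length behind each assay's FPKM is not given in the sources used here. Where RNA is scaled to the whole transcript and footprints to the coding sequence, the ratio between genes also holds the share of untranslated sequence, and its part in these ratios was not tested.

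**Figure D3:**
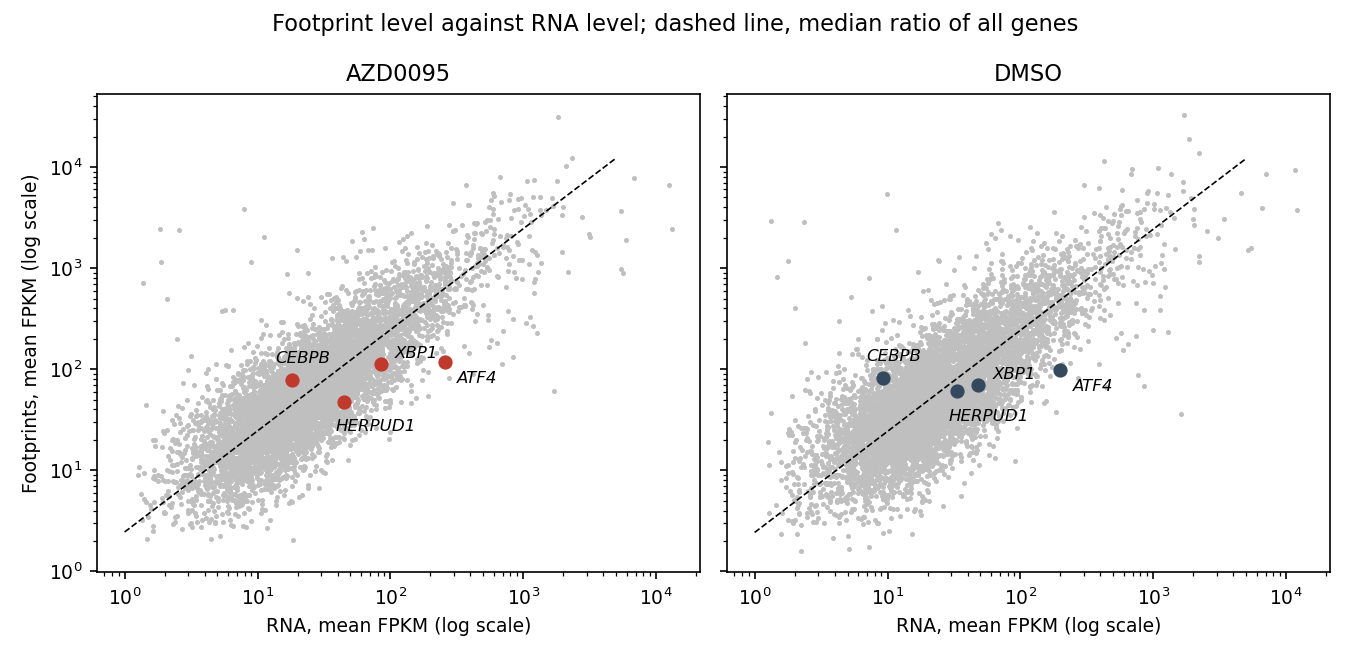
Mean footprint level against mean RNA level in FPKM on log axes for all 6777 genes (grey), with AZD0095 (left) and DMSO (right), and the 4 genes marked. The dashed line is the median ratio of all genes, 2.45 with AZD0095 and 2.43 with DMSO. CEBPB lies above it and the other 3 below, ATF4 at the edge of the cloud.

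The change of the ratio with treatment was small beside its error for ATF4 and XBP1. On the log2 scale, with the interaction of assay and treatment over the 12 libraries, it was -0.07 ± 0.30 for ATF4 and -0.08 ± 0.38 for XBP1 (SE). It was -0.69 ± 0.60 for CEBPB and -0.80 ± 0.39 for HERPUD1, with 95% intervals from -1.996 to 0.61 and from -1.65 to 0.04. The model draws 1 error from RNA and footprint libraries together, although footprints spread more. The SE of the ratio was below that of footprints alone for HERPUD1 (0.39 against 0.47) and ATF4 (0.30 against 0.37). These intervals may therefore be too narrow. The RNA change the genes were picked for enters these values with a minus sign, and they are not tested. HERPUD1 ran from -1.10 to -0.44 and CEBPB from -1.38 to -0.13 when libraries were left out. Over all genes 0 were called for the ratio by limma, with 578 or 8.53% at an unadjusted p under 0.05. In simulated data the ratio fit called 8 of 200 genes changed by 1 on the log2 scale.

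The measured sensors that lie upstream of the 4 genes gave 0 RNA calls, a count near the share of all genes for lists this short. Of 16 genes of eIF2 control looked for, 14 were measured, and the eIF2 kinase gene EIF2AK3 (PERK) was not among the 14. Of 14 measured genes of eIF2 kinases, eIF2 phosphatase, eIF2 and its exchange factor eIF2B, 0 were called by limma and 0 had an unadjusted p under 0.05, against 8.04% and 24.2% of all genes, with log2 fold changes from -0.09 to 0.14. The amino acid sensor kinase EIF2AK4 (GCN2) averaged 22.2 ± 1.71 FPKM with AZD0095 and 22.4 ± 0.214 FPKM with DMSO (SD, n = 3). The haem-regulated and mitochondrial stress kinase EIF2AK1 (HRI) averaged 24.1 ± 1.17 FPKM with AZD0095 and 23.9 ± 0.519 FPKM with DMSO. PPP1R15A (GADD34), the stress-induced phosphatase subunit that reverses eIF2 phosphorylation, was at 0.10 ± 0.08 (SE, limma adjusted p = 0.50). The activity of these kinases lies in phosphorylation, which RNA levels do not show.

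Of 11 sensors and processing enzymes of the unfolded protein response looked for, 9 were measured, and EIF2AK3 was not among the 9. Of the 9 measured, 0 were called and 1 had an unadjusted p under 0.05, against 8.04% and 24.2% of all genes. That gene was ATF6, at 56.0 ± 0.530 FPKM with AZD0095 and 50.0 ± 0.972 FPKM with DMSO (SD, n = 3; log2 fold change 0.16, limma adjusted p = 0.093). ERN1 was at 4.73 ± 0.639 FPKM with AZD0095 and 4.23 ± 0.791 FPKM with DMSO (0.14, limma adjusted p = 0.59).

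Downstream of ATF4, most measured targets were higher. Of 49 targets looked for, 35 were measured, CEBPB and HERPUD1 among them. Of the other 33, 20 were called higher, 0 lower and 13 were not called, 60.6% against 8.04% of all genes. Their median RNA log2 fold change was 0.35, against 0.01 over all genes. The list was written with earlier results of these libraries known, so its count is no independent evidence. The 6 with the smallest p were DDIT4, an mTORC1 inhibitor (2.23), the cysteine synthesis enzyme CTH (1.33), the pseudokinase TRIB3 (1.31), the amino acid transporter SLC38A2 (0.84), the lipoprotein receptor VLDLR (1.25) and the serine synthesis enzyme PSPH (0.78). Each of these 6 kept its call in all 12 alternative settings. The lowest of the list was the tRNA exporter XPOT, at -0.12 and not called. The count of 20 was 10 and 12 without AZD0095 replicates 2 and 3, and 10 and 13 without DMSO replicates 2 and 3.

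In footprints the ATF4 targets had a median log2 fold change of 0.59, against 0.04 over all genes, and 25 of 33 were positive. None was called by limma, and 6 had an unadjusted p under 0.05, against 7.82% of all genes. As in RNA, the list was written with earlier results of these libraries known, so these counts are no independent evidence. DDIT4 averaged 369 ± 23.5 FPKM with AZD0095 and 117 ± 29.3 FPKM with DMSO in footprints (SD, n = 3), and its log2 change was 1.68 ± 0.29 (SE; adjusted p from limma 0.31). CTH averaged 49.8 ± 13.6 FPKM with AZD0095 and 17.0 ± 10.7 FPKM with DMSO, and its log2 change was 1.63 ± 0.58 (SE; adjusted p from limma 0.63). Both lie above the footprint change of any of the 4 genes, and the difference was not tested.

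The other genes of the ER branch gave 0 RNA calls among ATF6 and XBP1 targets, against 8.04% of all genes, and lists this short are near that share. Of 13 ATF6 targets other than XBP1 and HERPUD1, 0 were called by limma and 1 had an unadjusted p under 0.05, against 24.2% of all genes, and their median was 0.00. The lowest was the co-chaperone DNAJC3 at -0.23 and the highest the ER chaperone cofactor SDF2L1 at 0.16. HSPA5, the chaperone BiP that is a standard marker of ER stress, was named after its value was seen: it averaged 412 ± 2.22 FPKM with AZD0095 and 397 ± 12.8 FPKM with DMSO (0.05 ± 0.04, SE, limma adjusted p = 0.52). Of 17 XBP1 targets 0 were called and 5 had an unadjusted p under 0.05, against 8.04% and 24.2% of all genes, in both directions, with a median of 0.00 and a range from DNAJC3 at -0.23 to the Golgi transport gene ARFGAP3 at 0.32. Without AZD0095 replicate 1 the count was 1 XBP1 target and 2 ATF6 targets, all lower. Without replicate 1 of both treatments it was 4 XBP1 targets, 3 higher and 1 lower, and again 2 ATF6 targets, both lower.

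ER-associated degradation, the process HERP serves, gave 1 other call. Of 25 other genes of this machinery 1 was called, 4% against 8.04% of all genes, with a median of -0.02. It was the ubiquitin ligase RNF5, at 72.0 ± 2.98 FPKM with AZD0095 and 60.8 ± 1.10 FPKM with DMSO (SD, n = 3; 0.24, limma adjusted p = 0.031). That call was lost with equal FPKM sums and without any single RNA library other than AZD0095 replicate 1 (adjusted p up to 0.14). Without AZD0095 replicate 1 the count was 2 and without replicate 1 of both treatments it was 4. The mannosidase-like EDEM3 was lowest at -0.23 and the ubiquitin-like membrane protein TMUB2 highest at 0.25, neither called.

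**Figure D4:**
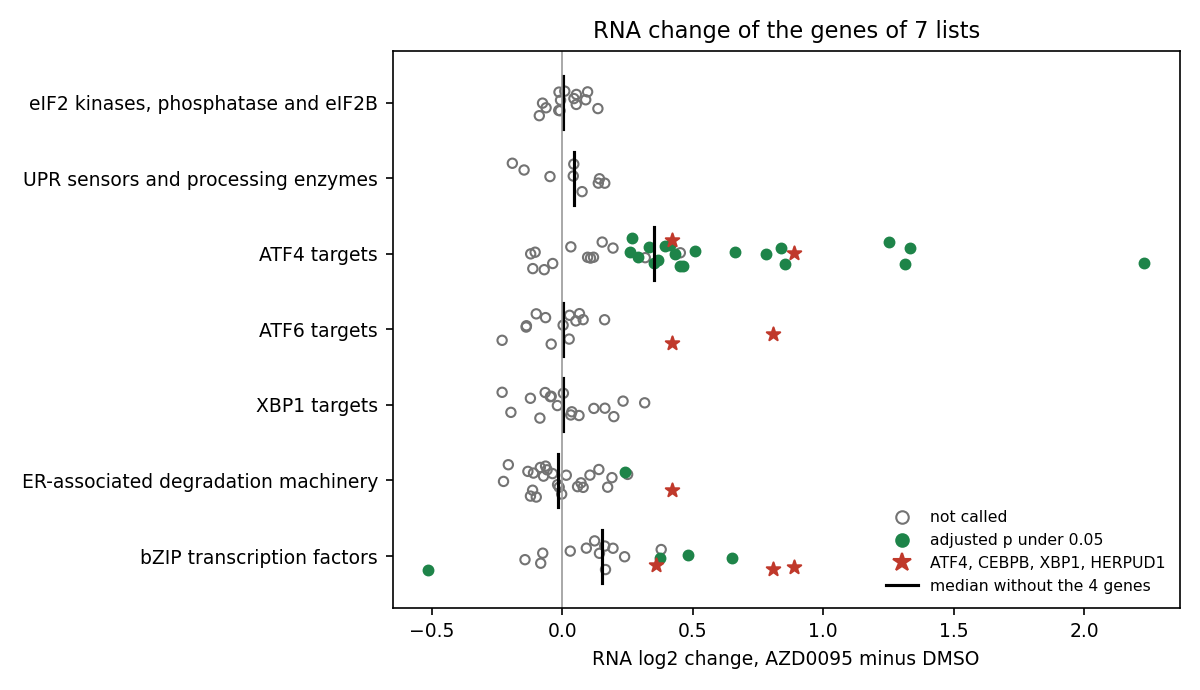
RNA log2 change with AZD0095 relative to DMSO for each measured gene of 7 lists. Filled circles were called by limma, stars are the 4 genes and black lines are list medians without them. ATF4 targets have a median of 0.35. XBP1 and HERPUD1 stand to the right of every other ATF6 target, and nothing is read from this, since they were picked for higher RNA.

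Of 53 bZIP transcription factors looked for, the family of ATF4, CEBPB and XBP1, 19 were measured. Without the members, 16 others remained. Of these 3 were called higher and 1 lower, 25% against 8.04% of all genes. CREB3L1, an ER-anchored factor of the CREB3 family released by the same proteases as ATF6, averaged 19.9 ± 0.858 FPKM with AZD0095 and 12.3 ± 0.933 FPKM with DMSO (SD, n = 3), and its log2 change was 0.65 ± 0.08 (SE; adjusted p from limma 0.0039). It kept its call in all 12 alternative settings. The AP-1 subunits JUNB (0.48, limma adjusted p = 0.006) and JUND (0.37, adjusted p = 0.02) were also called, JUND not without AZD0095 replicates 2 or 3 or DMSO replicate 2 (adjusted p up to 0.09). ATF1, a factor activated by cAMP signalling, was lower, at 11.5 ± 2.00 FPKM with AZD0095 and 16.7 ± 1.30 FPKM with DMSO (-0.51, limma adjusted p = 0.039), a call lost without any single RNA library other than AZD0095 replicate 1 (adjusted p up to 0.14).

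Other C/EBP, CREB3 and ATF6 relatives than CREB3L1 were not called. CEBPG, a C/EBP factor that pairs with ATF4 and was the other C/EBP gene listed, was at 0.19 ± 0.12 (SE, limma adjusted p = 0.36). CREB3 was at 0.17, CREB3L2 at 0.24 and ATF6B at 0.14, none of them called. No difference between these genes and the 4 was tested.

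**Figure D5:**
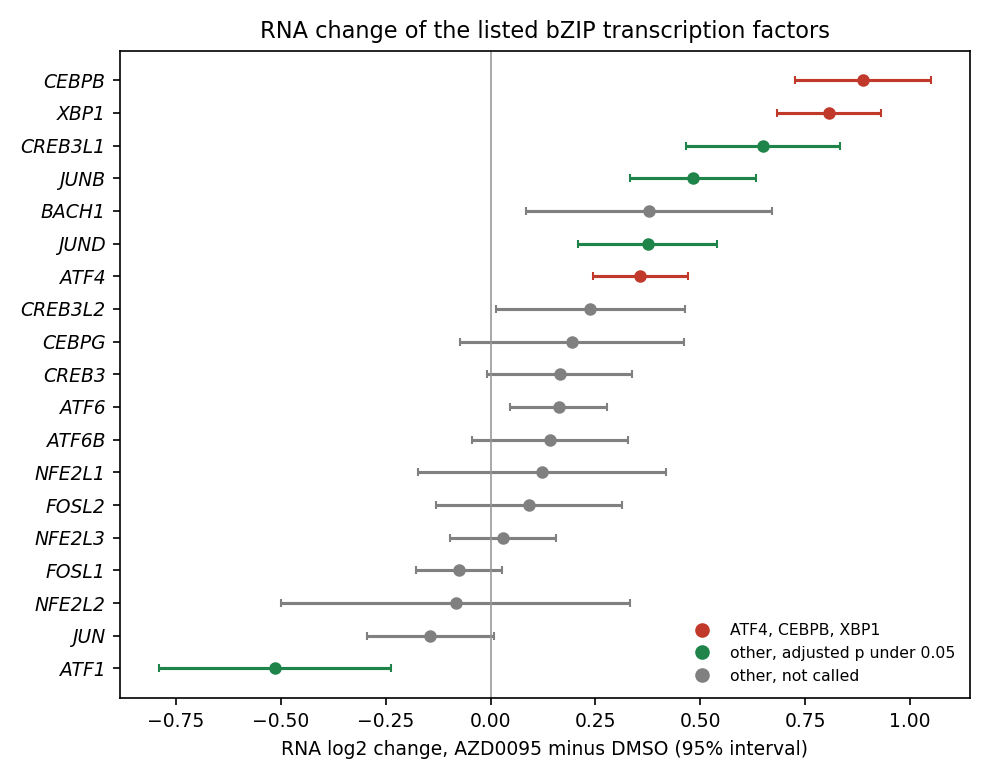
RNA log2 change with AZD0095 relative to DMSO of the 19 listed bZIP factors, with limma 95% intervals. CEBPB (0.89) and XBP1 (0.81), picked for higher RNA, are at the top, CREB3L1 (0.65) follows, and ATF1 (-0.51) is at the bottom. ATF4 (0.36), picked in the same way, lies below JUNB (0.48) and JUND (0.37).

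Over the 6 RNA libraries the genes most like each member were found by Pearson's r of log2(FPKM + 1), as a description. For CEBPB they were VAT1 (r = 0.9991), DDIT4 (0.9983) and TRIB3 (0.9982). For XBP1 they were YARS1, a tyrosyl-tRNA synthetase (0.9973), and MAGED2 (0.9971). For ATF4 they were the matrix protein gene CCN1 (0.9959), the transcription factor subunit gene GTF2F1 (0.9958) and RAB43 (0.9949). For HERPUD1 they were BCKDK (0.9970), the bZIP factor CREB3L1 (0.9955) and TUBG1 (0.9941). Between 168 and 240 of the 6777 genes had r above 0.95 with a member, and all points share the 2 treatment groups. Among themselves the 4 genes correlated at 0.933 to 0.995.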

How the data were processed

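The authors deposited FPKM values for each of 12 libraries, 1 table a library, listing Ensembl IDs with symbols. The submitters' processing notes name the tools STAR, Bowtie2 and fastp and the build hg38. Their roles and versions, the counter, the annotation and the way FPKM was computed are not given, so reads of overlapping or near-identical genes could be split in unknown ways. Of 6785 listed genes, 8 repeated entries were removed and 6777 tested. All fits used log2(FPKM + 1), whose pseudocount of 1 understates changes of low genes. RNA and footprints were each fitted with limma 3.58.1 (R 4.3.3), trended variance, two-sided, Benjamini-Hochberg adjustment over all genes. The ratio was the interaction in 1 limma model over 12 libraries. Footprint totals were found from whole-read steps, which 19% of listed genes showed in all 6 footprint libraries. The same search found the totals of 6 simulated libraries in which part of the genes were given whole reads. A filter at a mean of 1 FPKM removed 0 genes.

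The 4 genes, the lists and the motifs were chosen with earlier results of these data known. Named genes were the 4, the 3 most correlated with each in RNA (1 of these is not reported here), any kinase, sensor, C/EBP, ATF or CREB gene, and in longer lists the 6 called genes with the smallest p and the lowest and highest change. In RNA, same-numbered AZD0095 and DMSO libraries deviated together for replicates 1 and 3 but hardly for replicate 2, as given with the alternatives. The main fits did not use replicate numbers. Alternatives were another pseudocount, a filter of 5 FPKM, equal sums, median centring, a replicate block and leaving out libraries.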

Additional observations from a re-analysis of the deposited data

How the results depend on the processing

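Replicate numbers are shared by AZD0095 and DMSO libraries, but same-numbered libraries did not all deviate together: the correlation of their deviations was 0.622, 0.086 and 0.489 for replicates 1, 2 and 3 in RNA and 0.009, -0.022 and 0.091 in footprints, and AZD0095 replicate 2 correlated best with DMSO replicate 3 in RNA. With replicate number as a block, RNA calls came to 1622 (856 higher and 766 lower), with 1 call among the unfolded protein response sensors, 4 among XBP1 targets, 4 in ER-associated degradation and 8 among other bZIP factors, and 0 genes in footprints. The cause of these shifts was not tested.

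With libraries left out, calls in RNA ran from 100 without DMSO replicate 2 to 1395 without replicate 1 of both treatments. List calls ran from 0 to 1 for the sensors, 10 to 22 for ATF4 targets, 0 to 2 for ATF6 targets, 0 to 4 for XBP1 targets, 0 to 4 for ER-associated degradation and 2 to 4 for bZIP factors. Genes called for the ratio ran from 0 to 4. The footprint change of CEBPB ran from -0.50 without replicate 1 of both treatments to 0.76, and was -0.37 without DMSO replicate 1. The ratio change of ATF4 ran from -0.32 to 0.11, with 0.053 without footprint AZD0095 replicate 3, 0.0053 without footprint DMSO replicate 1 and 0.11 without footprint DMSO replicate 2, and was 0.015 with equal FPKM sums. That of XBP1 ran from -0.34 to 0.41, with 0.15 without footprint AZD0095 replicate 1, 0.19 without footprint DMSO replicate 1 and 0.41 without replicate 1 of both treatments.

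The RNA change of CEBPB was 0.95 with a pseudocount of 0.1. With libraries left out, the RNA changes ran from 0.32 to 0.38 for ATF4, 0.87 to 0.91 for CEBPB, 0.78 to 0.83 for XBP1 and 0.38 to 0.47 for HERPUD1. Under alternative settings 262 values kept their direction and their call or moved by less than the spread between replicates (for a count, 1.5 times), 35 moved by more and 9 changed sign. The footprint values of CEBPB rested on 4 to 39 reads a library, and the effect of depth on the other footprint values was not tested.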

Other observations

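Genes with the other 3 motifs in their promoter window were counted in the same way, with no test. Of 61 genes with a UPRE match, 3 were called higher and 2 lower, 4.92% higher against 5.03% of all genes. Of 239 with a CRE match, 11 were called higher and 8 lower, 4.6% higher against the same 5.03%, the bZIP factor JUND among the higher ones. Of 457 with a C/EBP half-site pair, 13 were called higher and 16 lower, 2.84% higher against 5.03% of all genes.

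The eIF2 phosphatase subunit gene PPP1R15A, known like ATF4 for upstream reading frames, averaged 141 ± 44.0 FPKM with AZD0095 and 215 ± 39.8 FPKM with DMSO in footprints (SD, n = 3). Its footprint log2 change was -0.64 ± 0.34 (SE; adjusted p from limma 0.68). The eIF2 kinase gene EIF2AK2 averaged 71.6 ± 5.45 FPKM with AZD0095 and 39.5 ± 11.9 FPKM with DMSO in footprints, and its log2 change was 0.89 ± 0.44 (SE; adjusted p from limma 0.67). Neither was called.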
